A study of Mus musculus with 8 samples.

Results

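Astrocytes, the star-shaped glial cells of the brain, were followed through 39 genes commonly used to mark them or to describe their work. The genes were taken by symbol, with earlier results of these data known. They make up 39 of 15184 genes tested, and 58 probes on the array carry their names. RNA was taken from samples labelled brain, 4 from mice fasted for 17 h and 4 from fed mice, and each sample was read on its own array. The comparison asks which brain transcripts differ after food is withheld. No genetic change or drug is named for either group, and strain, sex, age and the number of mice per sample are not given in the sources used here. What the p-values weigh is therefore sample-to-sample spread, which may in part be technical.

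Astrocytes clear glutamate, GABA and potassium from around synapses, move water at their endfeet on blood vessels, and share small solutes through gap junctions. They turn glutamate into glutamine, break down glycine and D-serine, and are the main store of glycogen in the brain. After injury or inflammation they become reactive, a state read from Gfap and from secreted proteins such as Serpina3n and Lcn2. Several of these genes are also used by other brain cells, for example Sparc by microglia and blood vessels, S100b by some oligodendrocytes and Id3 by vessel cells. Brain tissue was measured in bulk, so fewer astrocytes and less RNA per astrocyte cannot be told apart.

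Signals are given as scaled log2 signal, the log2 brightness of a probe minus the array's 75th percentile over all non-control spots, so that 0 is the brightness of that percentile. A difference is the mean of the 4 fasted arrays minus the mean of the 4 fed arrays on this scale, and it passed the test where limma's adjusted p was under 0.05 over all 26066 probes kept. Each gene is represented by its brightest kept probe. The values that a gene read are on this scale, in the order of replicates 1 to 4, and levels of different genes are not compared. The count of probes well above background ranged from 24567 to 27220 over the arrays, 0 spots were saturated, and the number of arrays limits the precision. The mean correlation of an array with the others of its group was 0.9955 to 0.9968 across kept probes. The arrays sat on 2 slides with 2 arrays of each group on each. Fasted arrays lay at positions 1 and 3 and fed arrays at positions 2 and 4, so position and feeding cannot be told apart.

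Each of the 39 astrocyte genes was well above background on all 8 arrays, so the defining markers Gfap, Aqp4, Slc1a2, Slc1a3, Aldh1l1, Gja1, Glul and Sox9 were measured in every sample. Of the 39 genes, 19 passed the test (48.7%), where 18.6% of all genes tested passed. Among them 11 rose, where 9.48% of all genes rose, and 8 fell, where 9.11% fell. The changes were small and ran both ways. Folds of the 19 genes ranged from 1.1 to 1.91 with a median of 1.2, and the median over all genes that passed was 1.18. The median difference of the 39 genes was 0.07 (log2), beside -0.01 over all genes. The fasted arrays lay wholly above the fed arrays for 16 of the genes and wholly below them for 8, where 27.2% of all genes tested had groups that did not overlap in either direction. The median SD of a gene within a group was 0.06 (log2). In the same fit 5 of 13 oligodendrocyte markers and 5 of 12 microglia markers fell, 0 of 16 neuron markers passed, and their part in the astrocyte values was not tested.

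**Figure D1:**
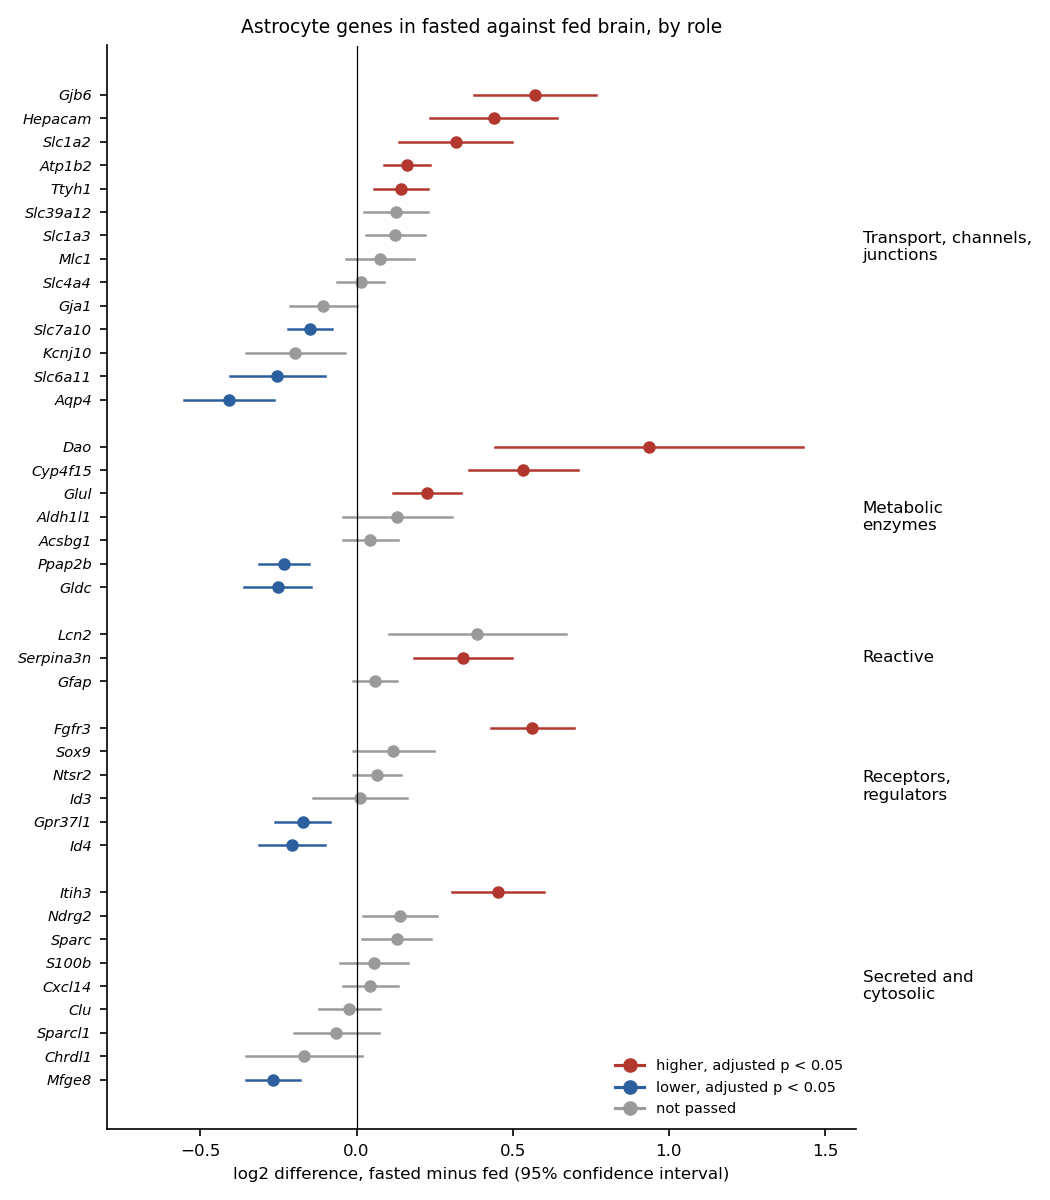
Log2 difference (fasted minus fed, 4 arrays per group) of each astrocyte gene with its 95% confidence interval from limma, ordered within 5 roles; red genes rose, blue genes fell and grey genes did not pass at an adjusted p of 0.05. Genes that rose and genes that fell stand together in every role except the reactive one, where Serpina3n passed and Lcn2 and Gfap did not.

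The 3 roles to be compared were transport, metabolism and reactivity. Of 14 transporters, channels and junction proteins 8 passed, 5 up and 3 down, and their median difference was 0.10 (log2). Of 7 metabolic enzymes 5 passed, 3 up and 2 down, with a median of 0.13. Of 3 reactive genes only Serpina3n passed, with a median of 0.34 over the 3. The 6 receptors and transcription regulators had 1 rise and 2 falls and a median of 0.04, and the 9 secreted and cytosolic proteins had 1 rise and 1 fall and a median of 0.04. Over all genes tested 18.6% passed, 9.48% up and 9.11% down. The share was 57.1% for the transport role, 71.4% for the metabolic, 33.3% for the reactive and 50% for the receptors. For the secreted and cytosolic proteins it was 22.2%, near the share over all genes. Differences between the roles were not tested, and the medians of the transport and metabolic roles depend on the probe taken: with the mean of each gene's probes they were 0.0622 and -0.0892. Without fasted replicate 3 they were 0.0746 and 0.191. The receptor median was 0.0194 without fasted replicate 3, 0.0199 without fed replicate 3 and 0.0596 without fed replicate 2. The median of the secreted and cytosolic proteins was 0.0169 without fasted replicate 3 and 0.0184 without fed replicate 4.

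All 19 genes that passed had the same sign on both slides. They were chosen on the mean over both slides, so that agreement is not an independent check. With slide as a block 19 of the 39 passed, beside 3152 of all 15184 genes. Within a single slide, with 2 arrays per group, limma passed 0 of the 39 genes and 0 of all genes on either slide, while 20 of the 39 had an unadjusted p under 0.05 on slide 1 and 14 on slide 2, beside 3517 and 2352 of all genes. With the replicate number as a block, which pairs arrays of the same number, 14 of the 39 passed, 9 up and 5 down, beside 2450 of all genes.

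**Figure D2:**
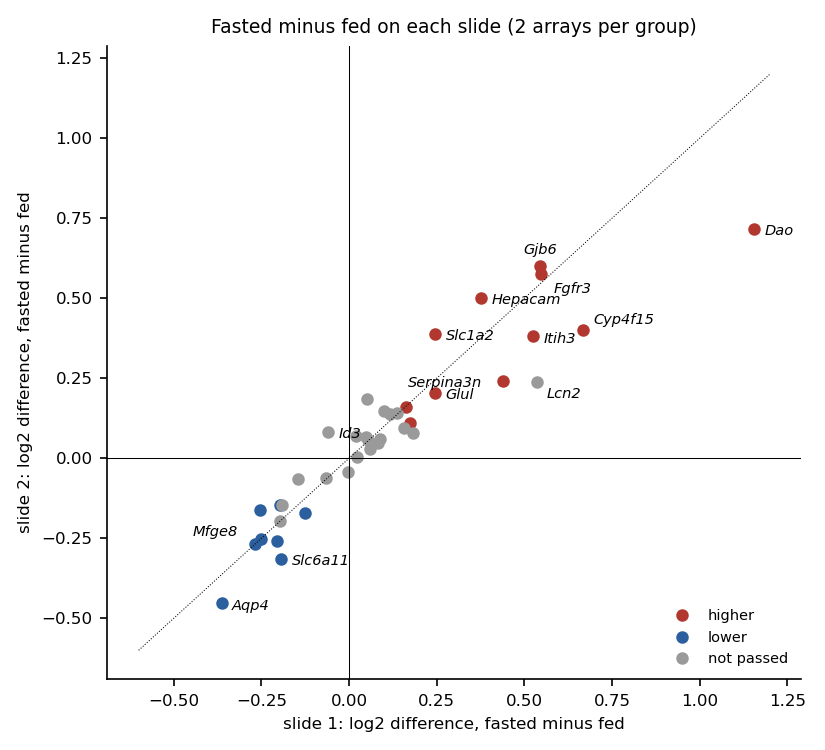
Log2 difference (fasted minus fed) of each astrocyte gene on slide 1 (x axis) and slide 2 (y axis), each from 2 arrays per group; the dotted line marks equal differences and colours are as called over both slides, with labels on genes picked after their values were seen. Dao lies at 1.16 and 0.72, Aqp4 at -0.36 and -0.45, and Id3, which did not pass, at -0.06 and 0.08, the only gene of opposite sign.

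Glutamate uptake is the work of Slc1a2 and Slc1a3, the glial glutamate transporters. Slc1a2 (NM_011393; probe at chr2:102617752-102617811 in mm9 coordinates, as for all probes here) read 3.36, 3.41, 3.51 and 3.35 on the fasted arrays and 3.27, 3.0, 3.15 and 2.93 on the fed arrays. Every fasted array lay above every fed array, although the highest fed array came close to the lowest fasted one. The gene rose 1.25-fold (95% confidence interval 1.1 to 1.41; log2 0.32 ± 0.08, SE, n = 4 per group; adjusted p = 0.0304). Of its other probes, both on another transcript, one rose by 0.26 and the other gave 0.04 (adjusted p = 0.745). The call was lost in several settings: adjusted p was 0.0529 to 0.0775 without any one of the 4 fasted arrays or without fed replicate 2 or 4, and 0.0545 with normexp background, 0.0677 with no filter on dim probes and 0.0745 with the mean of its probes.

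Slc1a3 read 2.93, 2.88, 3.03 and 2.95 on the fasted arrays and 2.82, 2.78, 2.80 and 2.87 on the fed arrays. The groups did not overlap, and the difference of 0.12 ± 0.04 missed the threshold (adjusted p = 0.0758; 0.0381 with a trended and robust variance model). The difference between the changes of Slc1a2 and Slc1a3 was 0.19 (log2; exact permutation test over 70 splits of the arrays, two-sided p = 0.0857, 0.129 after Benjamini-Hochberg adjustment over 3 pairs of genes picked after their values were seen). Exchanging arrays only between samples of the same number gave p = 0.25 (exact, 16 reassignments); that version cannot go below 0.125, so it cannot pass for any of the 3 pairs.

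The core of a glucocorticoid response element, ACANNNTGT on either strand, stood in the RefSeq promoter windows (GRCm38.p6, 300 bases around the start) of Slc1a2, Glul and Serpina3n, a gene from each role to be compared. These were chosen for printing after their values were seen, and they are shown because all of them rose. The 250 bases before the start are given 5′ to 3′ on the gene's strand, with the match in capitals, from chr2:102706188-102706437, chr1:153899679-153899928 and chr12:104406458-104406707, all on the plus strand and in another build than the probe positions.
Slc1a2: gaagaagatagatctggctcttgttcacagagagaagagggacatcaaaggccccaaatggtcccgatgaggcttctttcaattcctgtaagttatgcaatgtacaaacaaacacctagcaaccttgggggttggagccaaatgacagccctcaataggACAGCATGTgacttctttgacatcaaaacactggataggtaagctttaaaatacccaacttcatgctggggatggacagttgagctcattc
Glul: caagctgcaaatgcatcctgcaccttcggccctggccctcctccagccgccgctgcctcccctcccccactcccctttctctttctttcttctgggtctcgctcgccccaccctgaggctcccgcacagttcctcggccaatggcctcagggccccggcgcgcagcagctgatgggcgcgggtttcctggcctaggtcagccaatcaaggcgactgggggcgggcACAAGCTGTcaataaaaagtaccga
Serpina3n: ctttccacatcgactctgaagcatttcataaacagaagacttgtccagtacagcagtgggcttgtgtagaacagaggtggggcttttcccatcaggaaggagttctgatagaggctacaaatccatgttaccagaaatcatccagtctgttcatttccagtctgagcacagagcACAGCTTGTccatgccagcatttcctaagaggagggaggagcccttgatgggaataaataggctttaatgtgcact
The matches began 91, 25 and 76 bases before the start, in that order. The core was also in the windows of Dao, which rose, and of Lcn2, which did not pass.

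Of the 39 genes 33 had a window, 10 of the 11 that rose and 7 of the 8 that fell. Aqp4, Atp1b2, Sox9, Clu, Sparcl1 and Chrdl1 had no entry. The core was in 5 of the 33, 4 that rose and 0 that fell. Some genes have several windows: it was in 5 of the 39 windows of the astrocyte genes (12.8%) and in 6.85% of all 32851 windows. The split by direction has no such share beside it, because windows of all genes that rose or fell were not counted. A longer form, the core with G and any base before it and any base and C after it, was in Serpina3n alone and in 0.475% of all windows. In all, 8 motifs were searched on both strands, picked after the values were seen. TCACNNCA, a sterol regulatory element, was in 8 genes, of which 4 rose, 1 fell and 3 did not pass, and in 13.8% of windows. CACGTG, an E-box, was in Dao and Ntsr2 and in 7.15% of windows, and GTAAACA, a FOXO site, was in Ndrg2 and in 3.65%. TGACGTCA (a cAMP response element), a PPAR repeat of AGGTCA, any base and AGGTCA, and ATTGTT (a SOX site) were in 0 of the 33 and in 1.79%, 0.0396% and 10.7% of all windows. A match is a run of letters, and binding was not measured.

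Slc6a11 and Slc7a10 fell. Slc6a11, a GABA transporter of astrocyte processes, read 0.37, 0.32, 0.25 and 0.08 on the fasted arrays and 0.53, 0.54, 0.42 and 0.53 on the fed arrays. Fasted values were all lower and spread more widely than the fed ones. It fell 1.19-fold (1.07 to 1.32; log2 -0.25 ± 0.07; adjusted p = 0.0354, and 0.0506 with the replicate block). Adjusted p was 0.0571 to 0.0865 without fasted replicate 2 or 3 or fed replicate 1, 2 or 4, 0.0629 with normexp background and 0.0787 with no filter. Slc7a10, an exchanger of glycine, serine and other small neutral amino acids, read 0.70, 0.65, 0.61 and 0.64 on the fasted arrays and 0.82, 0.78, 0.80 and 0.79 on the fed arrays. The groups were tight and did not overlap, and it fell 1.11-fold (log2 -0.15 ± 0.03; adjusted p = 0.0156, and 0.0569 with median scaling).

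Of 18 partners in the glutamate and glutamine cycle 1 rose and 2 fell (16.7%, near the 18.6% over all genes), with a median of 0.03: Got1, a cytosolic aspartate aminotransferase, rose by 0.14 (adjusted p = 0.0365; 0.0514 to 0.0929 with the replicate block, median scaling, no filter or without any one array except fasted replicate 4), Slc38a3, a glutamine transporter of astrocytes, fell 1.37-fold (log2 -0.45; adjusted p = 0.00154), and Slc38a5, a related glutamine transporter, fell 1.58-fold (log2 -0.66; adjusted p = 0.0238; 0.0692 with the replicate block, and 0.0512 to 0.0592 with no filter or without fasted replicate 1 or 4 or fed replicate 1 or 4). Of 10 measured genes of GABA and glycine transport and glycine cleavage, Srr, the racemase that makes D-serine, rose by 0.13 (adjusted p = 0.037; 0.0514 to 0.0947 with the replicate block, normexp background, no filter or without any one array except fasted replicate 1, and 0.344 with the mean of its probes) and the other 9 did not pass, so that 10% passed beside 18.6% over all genes.

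Water, potassium and ion handling did not move as one. Aqp4, the water channel of the endfeet, read 0.85, 0.91, 0.79 and 0.94 on the fasted arrays and 1.32, 1.17, 1.22 and 1.42 on the fed arrays. Every fasted array was lower than every fed array by a clear margin. It fell 1.33-fold (1.2 to 1.47; log2 -0.41 ± 0.06; adjusted p = 0.00603).

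The second Aqp4 probe read -0.14, -0.24, -0.18 and -0.11 on the fasted arrays and 0.44, 0.36, 0.39 and 0.51 on the fed arrays and fell 1.51-fold (log2 -0.60 ± 0.04; adjusted p = 0.000792). Both probes separated the groups, and Aqp4 kept its call under all 19 alternatives that used both slides. Kcnj10, the inward rectifier potassium channel of astrocytes, read 3.59, 3.42, 3.66 and 3.36 on the fasted arrays and 3.75, 3.65, 3.68 and 3.74 on the fed arrays. Fasted replicate 3 lay among the fed arrays, and the difference of -0.20 ± 0.07 missed the threshold (adjusted p = 0.0898; 0.038 without that array and 0.048 with the trended and robust model).

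The difference between the changes of Aqp4 and Kcnj10 was -0.21 (log2; exact permutation test, two-sided p = 0.143, also 0.143 after adjustment over the 3 pairs; 0.125 when exchanged within the same number). Atp1b2, the glial beta subunit of the sodium pump, read 4.40, 4.43, 4.41 and 4.40 on the fasted arrays and 4.20, 4.30, 4.22 and 4.27 on the fed arrays. Its groups were narrow and apart, and it rose 1.12-fold (log2 0.16 ± 0.03; adjusted p = 0.0147).

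Ttyh1, a membrane protein of the tweety family, which has been linked to chloride currents, read 4.59, 4.55, 4.51 and 4.45 on the fasted arrays and 4.39, 4.40, 4.38 and 4.35 on the fed arrays. The groups lay close without overlapping, and it rose 1.1-fold (log2 0.14 ± 0.04; adjusted p = 0.0382, 0.0529 with the replicate block). Leaving out any one array except fasted replicate 4 gave an adjusted p of 0.0592 to 0.0911, and no filter on dim probes 0.0936. Its other probes also rose, by 0.26 (adjusted p = 0.00599) and 0.33 (adjusted p = 0.00269).

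Slc4a4, a sodium bicarbonate cotransporter, gave 0.01 on its brightest probe and -0.02 on a second, neither of which passed, with a 95% confidence interval of -0.06 to 0.09 for the first. Another probe of Slc4a4 was well above background on 1 of 8 arrays and was not tested. Slc39a12, a zinc transporter, had groups that did not overlap on its brightest probe and a difference of 0.13 (adjusted p = 0.09), with -0.03 on the other probe.

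Junction and adhesion proteins held 2 of the largest changes of the transport role. Gjb6, a connexin of astrocyte gap junctions (probe at chr14:57742226-57742285), read 3.16, 3.06, 3.20 and 3.18 on the fasted arrays and 2.53, 2.60, 2.80 and 2.37 on the fed arrays. Fasted arrays were close together and the fed arrays scattered below them. It rose 1.49-fold (1.30 to 1.70; log2 0.57 ± 0.08; adjusted p = 0.00527).

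The other main astrocyte connexin, Gja1, read -0.65, -0.75, -0.77 and -0.62 on the fasted arrays and -0.53, -0.58, -0.62 and -0.64 on the fed arrays. Here the groups overlapped, and the difference of -0.11 ± 0.05 did not pass (adjusted p = 0.156, 95% confidence interval -0.21 to 0.00). Gjb6 and Gja1 differed in their change by 0.68 (log2; exact permutation test, two-sided p = 0.0286, the smallest that 70 free splits can give, and 0.0857 after adjustment over the 3 pairs). Exchanged within the same number it gave 0.125, the smallest possible there. With these p-values for the other pairs no adjusted p under 0.0857 could be reached, so missing the threshold says nothing about the size of the contrast. The 3 pairs were picked after their values were seen, so none of these p-values is independent support for a contrast.

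Hepacam, a cell adhesion molecule that anchors its partner Mlc1 at astrocyte contacts, read -0.34, -0.36, -0.41 and -0.54 on the fasted arrays and -0.64, -0.82, -0.89 and -1.06 on the fed arrays. The lowest fasted array stayed above the highest fed array, and it rose 1.36-fold (1.18 to 1.56; log2 0.44 ± 0.09; adjusted p = 0.0147). Mlc1, a membrane protein of the endfeet whose loss causes a leukoencephalopathy, overlapped between groups with a difference of 0.07 (adjusted p = 0.315). Of 16 measured partners in junctions, water and potassium handling 1 rose and 1 fell (12.5%, beside 18.6% over all genes), with a median of 0.03 (log2).

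**Figure D3:**
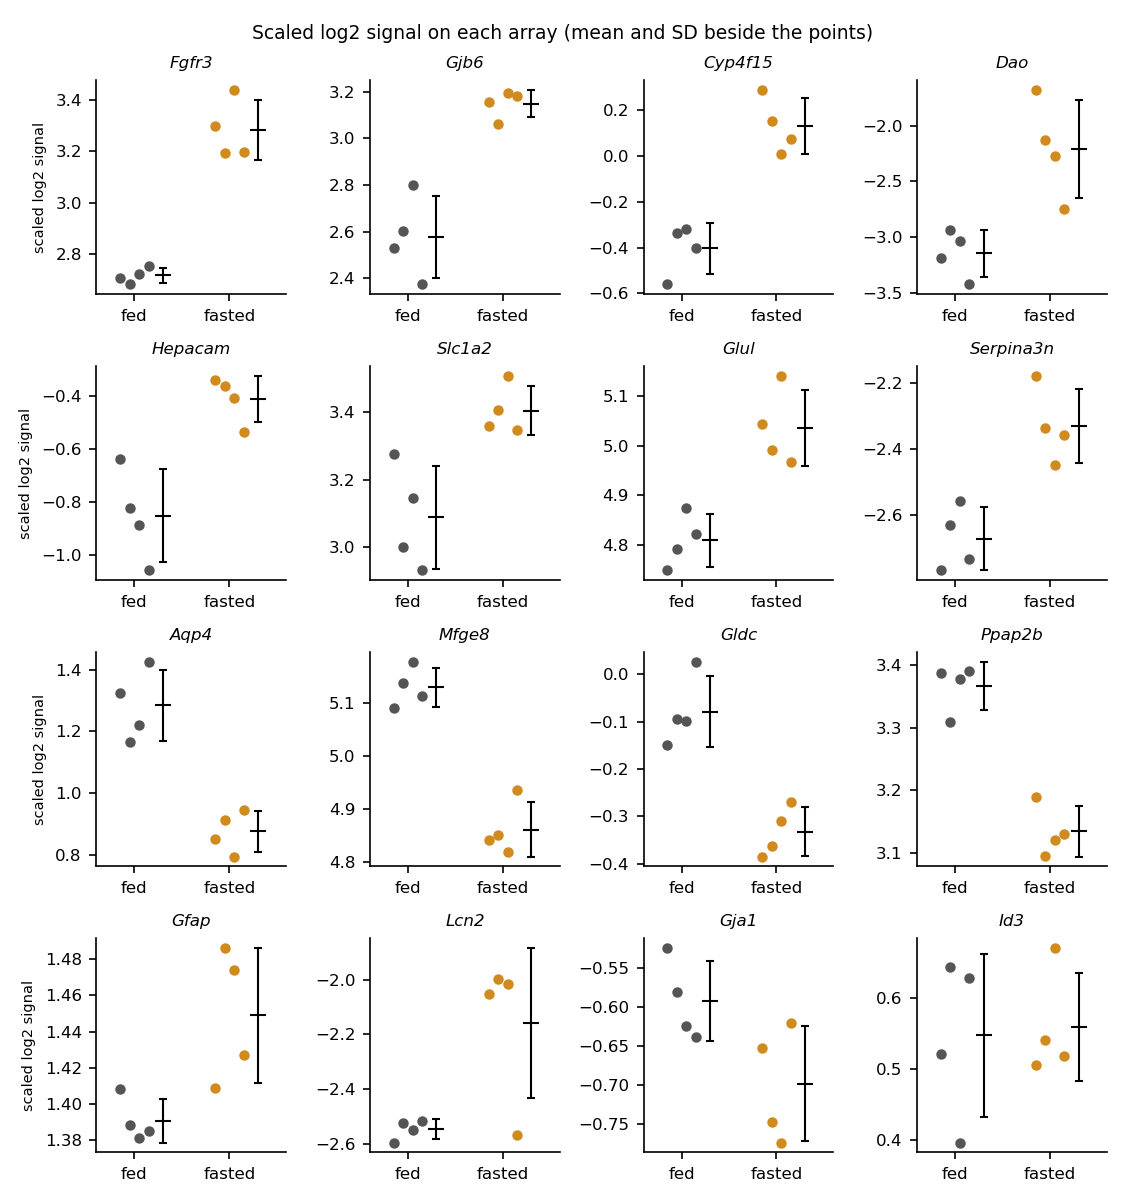
Scaled log2 signal (y axis, its range set for each gene) of 16 astrocyte genes on each of 4 fed (grey) and 4 fasted (orange) arrays, with the group mean and SD beside the points; the genes were picked after their values were seen. The upper 8 genes rose, the next 4 fell, and in the bottom row Lcn2 has 3 fasted arrays near -2.0 and the remaining one at -2.57 among the fed values.

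Among metabolic enzymes the largest rise was in Dao, the D-amino acid oxidase that degrades D-serine (NM_010018; probe at chr5:114475410-114475469). Dao read -1.68, -2.13, -2.27 and -2.75 on the fasted arrays and -3.19, -2.93, -3.04 and -3.42 on the fed arrays. Both groups were wide and did not overlap, and the rise was 1.91-fold (1.36 to 2.70; log2 0.94 ± 0.21; adjusted p = 0.0228).

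Dao was dim, below the 75th percentile on every array, and its other probe was above background on 0 of 8 arrays and not tested. The adjusted p of Dao was 0.0588 without fasted replicate 2, 0.0546 without fed replicate 1, 0.0573 without fed replicate 4 and 0.0515 with no filter. Gldc, the glycine decarboxylase of the glycine cleavage system, read -0.38, -0.36, -0.31 and -0.27 on the fasted arrays and -0.15, -0.09, -0.10 and 0.03 on the fed arrays. It separated the groups in the other direction and fell 1.19-fold (1.11 to 1.28; log2 -0.25 ± 0.05; adjusted p = 0.0111).

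Glul, the glutamine synthetase that closes the glutamate cycle in astrocytes (probe at chr1:155756765-155756824), read 5.04, 4.99, 5.14 and 4.97 on the fasted arrays and 4.75, 4.79, 4.87 and 4.82 on the fed arrays. All fasted arrays exceeded all fed arrays in this bright gene, and it rose 1.17-fold (1.08 to 1.26; log2 0.23 ± 0.05; adjusted p = 0.0176). Cyp4f15, a fatty acid hydroxylase, read 0.29, 0.15, 0.01 and 0.07 on the fasted arrays and -0.56, -0.33, -0.32 and -0.40 on the fed arrays. Its groups were far apart, and it rose 1.45-fold (1.28 to 1.63; log2 0.53 ± 0.08; adjusted p = 0.00447), with 0.67 on slide 1 and 0.40 on slide 2.

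Ppap2b, a phosphatase of lysophosphatidic acid and related lipids that is now named Plpp3, read 3.19, 3.10, 3.12 and 3.13 on the fasted arrays and 3.39, 3.31, 3.38 and 3.39 on the fed arrays. The fed arrays were all higher, and the fall was 1.17-fold (1.11 to 1.24; log2 -0.23 ± 0.04; adjusted p = 0.00565). Acsbg1, an acyl-CoA synthetase for long-chain fatty acids, overlapped between groups at 0.04 (adjusted p = 0.463), and its second probe, above background on 4 of 8 arrays, gave -0.22 (adjusted p = 0.502).

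Aldh1l1, a folate enzyme that is a standard astrocyte marker, had probes with differences of opposite sign, of which only the dimmer passed. The brightest (NM_027406) read 2.91, 2.98, 2.69 and 2.98 on the fasted arrays and 2.71, 2.82, 2.84 and 2.67 on the fed arrays. Its groups overlapped and its difference of 0.13 ± 0.08 did not pass (adjusted p = 0.268, and 0.0471 at 0.20 without fasted replicate 3).

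The second probe (ENSMUST00000130418, a transcript not matched in the RefSeq table) read -3.30, -3.31, -3.46 and -3.24 on the fasted arrays and -3.0, -2.93, -2.94 and -2.97 on the fed arrays. It fell 1.29-fold with no overlap (log2 -0.37 ± 0.05; adjusted p = 0.00396). This probe was dim, with a mean intensity of 183 on fasted and 220 on fed arrays. The brightest probe had 13653 and 11578. The last 30 bases of each probe of 60 are printed to show that they read different sequence, at chr6:90549091-90549150 and chr6:90550028-90550087 of mm9 on the plus strand, with the polyadenylation hexamer AATAAA in capitals where present.
Aldh1l1, brightest probe: gtcatgtcccccatgAATAAAaattgtgag
Aldh1l1, second probe: atacgtgatggggccgtgtaaaccccacca
The hexamer was in 7 of the 58 probes of the astrocyte genes and, of these 2, in the one that did not pass.

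Glycogen and lactate genes, part of the same metabolic work, were mixed. Of 16, 2 rose and 4 fell (37.5%, beside 18.6% over all genes), and their median was 0.02 (log2). Pygm, a glycogen phosphorylase, rose 1.26-fold (log2 0.33; adjusted p = 0.00264), and Slc2a1 was the other gene that rose. Pygb, a second glycogen phosphorylase, went the other way and fell. Phkg1, the catalytic subunit of phosphorylase kinase, fell 1.27-fold (log2 -0.35; adjusted p = 0.00692), Ppp1r3c, which brings protein phosphatase to glycogen, fell 1.17-fold (log2 -0.22; adjusted p = 0.0112), and Ugp2, which makes the UDP-glucose used for glycogen, fell 1.2-fold (log2 -0.27; adjusted p = 0.0156).

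**Figure D4:**
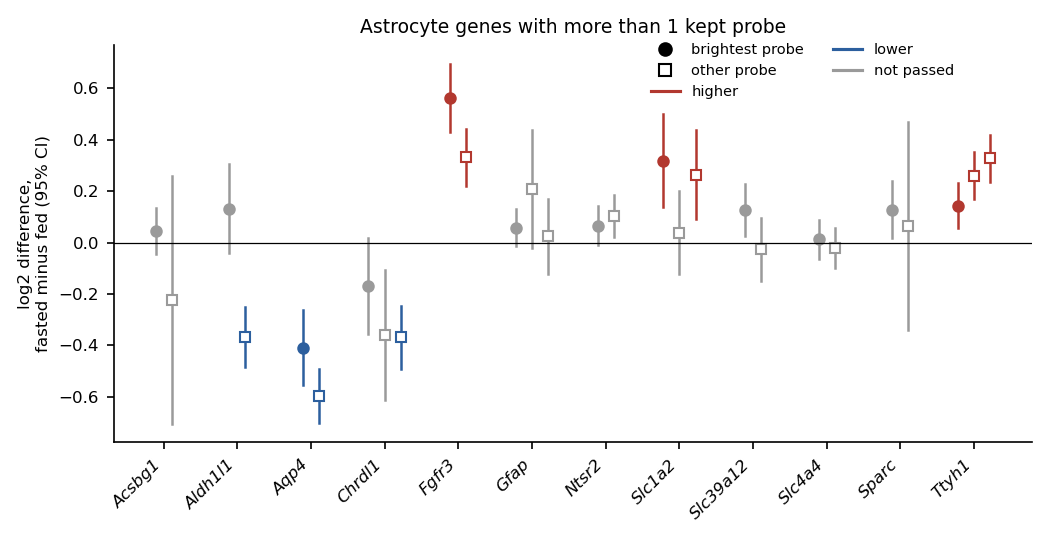
Log2 difference (fasted minus fed) with its 95% confidence interval for the 12 astrocyte genes with more than 1 kept probe; filled circles are the brightest probe and open squares the others, red for a rise, blue for a fall and grey where the probe did not pass. Aqp4, Fgfr3 and Ttyh1 have every kept probe past the test in 1 direction, whereas the Aldh1l1 probes stand at 0.13 and -0.37.

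All 3 reactive genes had positive differences, and 1 passed. Gfap, the intermediate filament of astrocytes, read 1.41, 1.49, 1.47 and 1.43 on the fasted arrays and 1.41, 1.39, 1.38 and 1.39 on the fed arrays. The groups touched without overlapping, at 1.41 for the lowest fasted and the highest fed array, and the difference of 0.06 ± 0.03 did not pass (adjusted p = 0.231; 95% confidence interval -0.01 to 0.13). Its other probes gave 0.02 and 0.21, with adjusted p of 0.833 and 0.191.

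Serpina3n, a secreted protease inhibitor (probe at chr12:105651918-105651977), read -2.18, -2.34, -2.45 and -2.36 on the fasted arrays and -2.76, -2.63, -2.56 and -2.73 on the fed arrays. It was dim but separated the groups, and it rose 1.27-fold (1.13 to 1.41; log2 0.34 ± 0.07; adjusted p = 0.0149, and 0.0528 with the replicate block). Lcn2, lipocalin, a secreted binder of siderophores, read -2.05, -2.0, -2.02 and -2.57 on the fasted arrays and -2.60, -2.52, -2.55 and -2.51 on the fed arrays.

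In Lcn2 3 fasted arrays were above all fed arrays and the remaining one was among them, and the difference of 0.39 ± 0.12 missed the threshold (adjusted p = 0.0673). Without fasted replicate 4 the difference was 0.52 (adjusted p = 0.00356), and the trended and robust model gave 0.0402. Of 11 measured genes raised in reactive astrocytes generally, these 3 among them, 2 rose and 0 fell (18.2%, near the 18.6% over all genes), Serpina3n and Cp, the ferroxidase ceruloplasmin (1.36-fold; log2 0.44; adjusted p = 0.00678). The median of the 11 was 0.06 (log2), and Steap4 and Cxcl10 were not among the probes kept.

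Among receptors Fgfr3, a receptor for fibroblast growth factors, had the smallest p of the 39 genes (NM_001163215). Its brightest probe read 3.30, 3.19, 3.44 and 3.19 on the fasted arrays and 2.71, 2.68, 2.73 and 2.75 on the fed arrays. The groups were far apart next to their spread, and it rose 1.48-fold (1.35 to 1.62; log2 0.56 ± 0.06; adjusted p = 0.00161).

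A second Fgfr3 probe read -1.42, -1.48, -1.33 and -1.49 on the fasted arrays and -1.74, -1.72, -1.84 and -1.73 on the fed arrays and rose 1.26-fold (log2 0.33 ± 0.05; adjusted p = 0.00479). It covers 235 bases of genome with 60 bases of probe. The remaining probe was above background on 1 of 8 arrays. The call of the gene comes from the brightest probe alone. The last 30 bases of the 2 probes that rose show that they read separate stretches of the gene. The probes lie at chr5:34079649-34079708 and chr5:34077856-34078090 of mm9 on the plus strand, and AATAAA is in capitals.
Fgfr3, brightest probe: ttactttccaaaaAATAAAgagataactgg
Fgfr3, second probe: acgagtacttggacctctccgtgccgtttg

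Other receptors went lower or did not pass. Gpr37l1, a receptor of astrocytes in the family coupled to G proteins, read 0.07, 0.04, 0.06 and 0.06 on the fasted arrays and 0.18, 0.32, 0.18 and 0.23 on the fed arrays. Fed arrays were all higher, and it fell 1.13-fold (log2 -0.17 ± 0.04; adjusted p = 0.0211, 0.0544 with the replicate block, 0.0502 and 0.058 without fasted replicate 1 or 2, 0.0614 with normexp background and 0.0575 with no filter). Ntsr2, a neurotensin receptor, gave 0.07 and 0.10 on its 2 probes (adjusted p = 0.213 and 0.0842).

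Id3 and Id4 encode proteins that hold basic helix-loop-helix factors off DNA. Id4 read 0.52, 0.39, 0.52 and 0.57 on the fasted arrays and 0.65, 0.76, 0.72 and 0.69 on the fed arrays. It fell 1.15-fold with no overlap (log2 -0.21 ± 0.05; adjusted p = 0.0215, 0.0609 with the replicate block, 0.0583 and 0.0523 without fed replicate 2 or 3, 0.0565 with median scaling and 0.0551 with no filter). Id3 read 0.51, 0.54, 0.67 and 0.52 on the fasted arrays and 0.52, 0.64, 0.40 and 0.63 on the fed arrays, with groups that overlapped throughout and a difference of 0.01 ± 0.06 (adjusted p = 0.922; 95% confidence interval -0.14 to 0.16).

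Sox9, the transcription factor that specifies glia, had fasted arrays just above the fed ones and a difference of 0.12 that did not pass (adjusted p = 0.19). Around these regulators, 5 of 22 measured genes of BMP, Id and Fgf signalling rose and 2 fell (31.8%, beside 18.6% over all genes), with a median of 0.08. The 2 that fell were Fgfr2, another receptor of the Fgfr3 family, and Smad5. Smad9, a transducer of BMP signals, rose 1.28-fold (log2 0.35; adjusted p = 0.0022), Id2, another Id protein, 1.23-fold (log2 0.30; adjusted p = 0.0102), Fgf1, a ligand of Fgfr3, 1.16-fold (log2 0.22; adjusted p = 0.0125; 0.947 with the mean of its probes), and the ligand Bmp4 1.26-fold (log2 0.33; adjusted p = 0.0137).

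Of the 9 secreted and cytosolic proteins 2 passed (22.2%, near the 18.6% over all genes). Itih3, a heavy chain that binds hyaluronan in the matrix, read 2.65, 2.50, 2.39 and 2.47 on the fasted arrays and 2.0, 2.10, 2.14 and 1.96 on the fed arrays. It rose 1.37-fold with clear separation (1.24 to 1.52; log2 0.45 ± 0.06; adjusted p = 0.00448).

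Mfge8, which bridges phosphatidylserine on dying cells to phagocytes, read 4.84, 4.85, 4.82 and 4.93 on the fasted arrays and 5.09, 5.14, 5.18 and 5.11 on the fed arrays. All fasted arrays were lower, and it fell 1.2-fold (1.13 to 1.28; log2 -0.27 ± 0.04; adjusted p = 0.00427). Chrdl1, a secreted BMP antagonist, had 3 probes with negative differences. The brightest gave -0.17 (adjusted p = 0.191), another -0.36 (adjusted p = 0.0587) and the last fell, at -0.37 (adjusted p = 0.00475). With the mean of the probes, which are listed under different transcripts, the gene passed, at -0.30 (adjusted p = 0.0173).

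S100b, a calcium-binding protein, read 4.27, 4.24, 4.40 and 4.23 on the fasted arrays and 4.23, 4.17, 4.27 and 4.24 on the fed arrays, with overlapping groups and a difference of 0.06 (adjusted p = 0.454). The other 5 genes of the role did not pass. Their differences were 0.14 for Ndrg2, a cytosolic hydrolase-like protein, 0.13 for Sparc, a matrix glycoprotein, 0.04 for Cxcl14, a chemokine, -0.02 for Clu, the chaperone clusterin, and -0.06 for Sparcl1, a synapse-inducing relative of Sparc. Adjusted p was 0.106 for Ndrg2 and 0.109 for Sparc, whose fasted arrays lay wholly above the fed ones on the brightest probe, and 0.47, 0.757 and 0.49 for Cxcl14, Clu and Sparcl1.

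At the level of probes, 26 of the 55 kept probes of the astrocyte genes passed, 15 up and 11 down, where 16.9% of all kept probes passed. The remaining 3 probes, of Dao, Fgfr3 and Slc4a4, were too dim to be tested. More than 1 kept probe was found for 12 genes. The further probes need not read the same RNA, since those of Slc1a2, Aldh1l1, Chrdl1 and Acsbg1 are listed under another transcript than the brightest. So is a further probe of Gfap. Aldh1l1 was the only one of the 12 with a probe that passed and a brightest probe on the other side of 0.

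A second list of astrocyte genes, also chosen with earlier results known and with no member in common with the 39, held both directions as well. Of 39 measured of 40, 11 rose and 9 fell (51.3%, beside 18.6% over all genes), with a median of -0.03 (log2), and Tlr3 was not among the probes kept. Ezr, ezrin, which links membrane to actin in fine astrocyte processes, rose 1.5-fold (log2 0.58; adjusted p = 0.00112), Timp4, a metalloproteinase inhibitor, 1.44-fold (log2 0.53; adjusted p = 0.00218) and Cbs, cystathionine beta-synthase, 1.46-fold (log2 0.55; adjusted p = 0.00254). Slc25a18, a mitochondrial glutamate carrier, fell 1.22-fold (log2 -0.29; adjusted p = 0.00293), as did Phkg1 and Ppp1r3c, which are in this list too.

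Markers of other cells were read in the same fit. Summed over a list in multiples of each array's 75th percentile, the astrocyte genes came to 534 to 556 on fasted and 517 to 540 on fed arrays. Such a sum is weighted to the brightest genes, here Sparcl1, Clu and Sparc, none of which passed. Neuron markers came to 320 to 335 and 310 to 322, and 0 of 16 passed, with a median of 0.07 (limma; 2 of the 16 had an unadjusted p under 0.05, and the share past the test over all genes was 18.6%). Oligodendrocyte markers came to 136 to 151 on fasted and 144 to 160 on fed arrays, with 5 of 13 lower (among them Ugt8a, Mag and Opalin) and 1 higher.

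Microglia markers came to 60.8 to 65.3 on fasted and 63.3 to 68.4 on fed arrays, with 5 of 12 lower (among them Tmem119, Aif1 and Trem2) and 0 higher. The Trem2 call was lost in 10 of the alternatives, with adjusted p of 0.0511 to 0.0867. Endothelial and mural markers came to 15.8 to 16.7 and 15.6 to 16.5, with 3 of 15 higher and 3 lower. Oligodendrocyte precursor markers had 2 of 8 higher, ependymal and choroid plexus markers 1 of 11 higher and 1 lower, and blood and meningeal markers 2 of 12 lower. Forebrain markers came to 57.2 to 60.4 on fasted and 52.3 to 56.3 on fed arrays, which did not overlap, with 2 of 12 higher. Of the other region markers 0 of 9 passed for cerebellum and 1 of 9 higher for hypothalamus, thalamus and hindbrain, and 0 of 9 housekeeping genes passed (limma; 0 of the cerebellum and 1 of the housekeeping genes had an unadjusted p under 0.05). No kept marker read 0 on an array. Among the markers with no kept probe under their name were Neu4, Cd68, Gabra6, Cbln3, Ca8, Drd1a, Hoxb5, Hoxb3, Hoxc4, Slc6a5, Tph2, Hbb-b1 and Polr2a. The part of other cell types or brain regions in the astrocyte results was not tested.

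**Figure D5:**
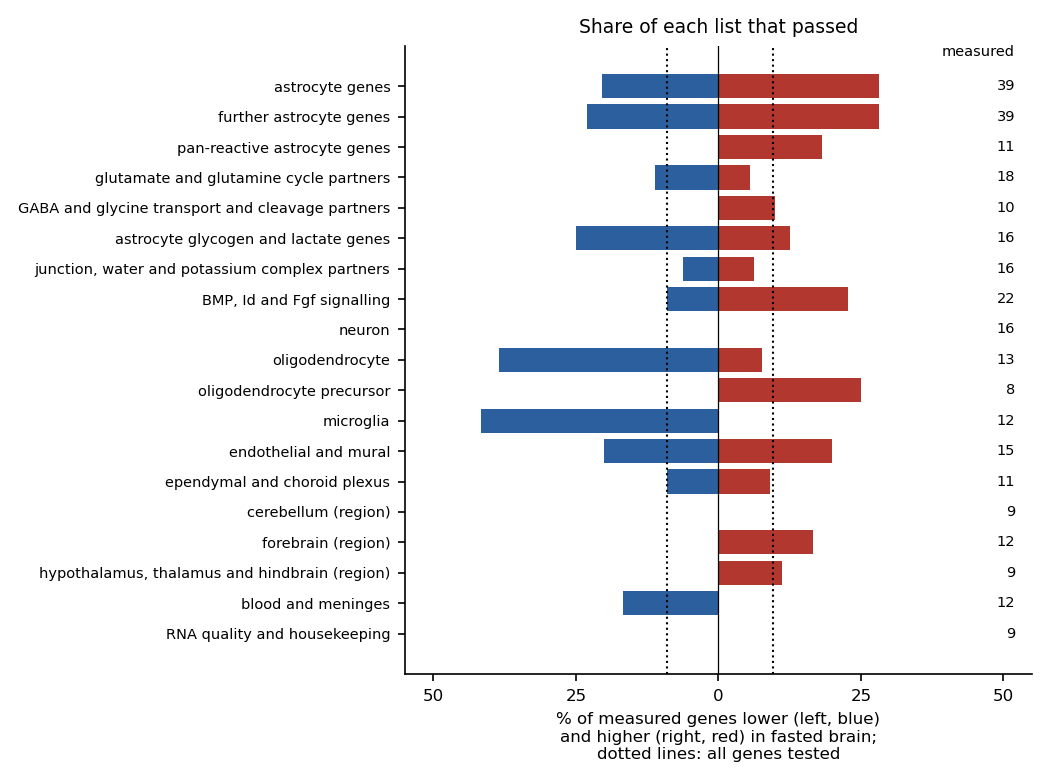
Percent of the measured genes of each list that fell (blue, to the left) or rose (red, to the right) in fasted brain at an adjusted p of 0.05, with the number measured at the right and dotted lines at the shares over all genes tested, 9.11% lower and 9.48% higher. Both general astrocyte lists have bars on both sides, microglia and most oligodendrocyte bars lie to the left, and neuron, cerebellum and housekeeping lists have none.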

How the data were processed

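Total RNA from fasted and fed mouse brain was labelled with Cy3 and hybridised to 8 single-colour Agilent arrays, per the labels. The deposited scanner files hold spot intensity made with Feature Extraction 11.0.1.1 and background method code 7, per the file headers; the submitters' processing notes name version 10.10.1.1. The series-wide table, also deposited, gives each spot a linear ratio, which equals the scaled scanner signal over a factor constant per probe (spread 0.000179, log2) whose baseline is unknown, with column medians of 0.97, 0.993, 0.973 and 0.987 (fasted 1 to 4) and 0.987, 1.02, 0.991 and 1.02 (fed 1 to 4). It served as an alternative.

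Here, log2 processed signal minus each array's 75th percentile (1651 to 1944 in intensity units) was averaged over the spots of a probe, without control and outlier spots (128 to 217 per array). Probes well above background on at least 4 of 8 arrays, judged by at least 0.5 of their spots, were kept (26066 of 39429). The groups were tested with limma 3.58.1 (R 4.3.3; two-sided, Benjamini-Hochberg over kept probes, threshold 0.05), which was tested on simulated data. A gene takes its brightest kept probe. Accessions of 27427 probes, 55 of the 58 of the astrocyte genes, matched RefSeq (GRCm38.p6), used for names and promoters. Probe coordinates are those of mm9 in the files, and which exon a probe lies in was not analysed here.

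The astrocyte genes, roles, lists and alternatives were chosen with earlier results of these data known. Named genes are those that passed, the defining genes of each role, genes whose probes disagree, and of other lists the 4 (marker lists 3) with the smallest p among those that passed; some genes the rule names are not reported here. Pygb, Slc2a1, Fgfr2 and Smad5 are named beside these by direction only. The main comparison had no block. Same-numbered fasted and fed arrays deviated together (correlation 0.18 to 0.29), and they also share a slide and neighbouring positions. Fasted and fed arrays of other numbers on the same slide gave 0.05 to 0.27, and those on different slides -0.39 to -0.10. Whether the numbers mark pairs cannot be told from these values. Alternatives changed the background correction, scaling, filter, probe rule, blocks, variance model and arrays.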

Additional observations from a re-analysis of the deposited data

Results flagged for a closer look

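In 4 of 78 groups of 4 arrays, 1 array stood apart from the other 3 by more than Dixon's 95% critical value allows, where chance gives about 1 group in 20. Fed replicate 3 of Slc6a11 read 0.424, with the other fed arrays at 0.53 to 0.54. Fed replicate 2 of Ppap2b read 3.31, with the others at 3.38 to 3.39. Fasted replicate 4 of Lcn2 read -2.57, with the others at -2.05 to -2.0, and without it Lcn2 passed (adjusted p = 0.00356). Fasted replicate 4 of Ndrg2 read 5.18, with the others at 5.28 to 5.30. Of these 4 values 2 were on fasted replicate 4, and fed replicates 2 and 3 had 1 each.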

How the results depend on the processing

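Over 21 alternatives none of the 19 astrocyte genes that passed changed sign, and 11 of them passed under all 19 alternatives that used both slides: Aqp4, Atp1b2, Hepacam, Gjb6, Glul, Gldc, Cyp4f15, Ppap2b, Fgfr3, Mfge8 and Itih3. The other 8 lost the call under some, and 5 that had not passed gained it under some. The number of astrocyte genes called was 13 to 22 over those 19 alternatives, with 5 lower in place of 8 with no filter on dim probes and with the replicate block. The replicate block ended the call for Ttyh1, Slc6a11, Serpina3n, Gpr37l1 and Id4 and for no other of the 19. Within slide 1 and within slide 2 limma called 0 genes of any kind. Of all genes, 2823 passed (1440 higher, 1383 lower); normexp background gave 1823 (904 and 919), no filter 1642 (838 and 804), and median scaling 914 lower. Leaving out 1 array gave 1774 to 2417 (918 to 1160 higher, 856 to 1257 lower), the lowest without fasted replicate 1, and 14 to 19 astrocyte genes. The fixed pathway lists had 39 calls, and 25 with no filter. The transport median moved from 0.10 to 0.0622 with the mean of probes and to 0.0746 without fasted replicate 3 (range without 1 array 0.0746 to 0.112), the metabolic median from 0.13 to -0.0892 and 0.191 (range without 1 array 0.10 to 0.191), and the receptor median from 0.04 to -0.00412 within slide 1. Signs changed for 5 genes that did not pass: Slc4a4 (-0.00405 with the mean of probes, -0.000688 without fasted replicate 3, -9.56e-05 without fed replicate 2, up to 0.0249 with any other array left out), Aldh1l1 (-0.118, mean of probes), Acsbg1 (-0.0892, mean of probes), Id3 (-0.0592 within slide 1, -0.0255 without fasted replicate 3, -0.0388 without fed replicate 3, up to 0.0439 with any other array left out) and Clu (0.0136 with quantile normalization, 0.0011 without fasted replicate 4, down to -0.0468 with any other array left out). Of 23 genes of the other lists named with values or as examples, run through the same alternatives after their values were seen, 18 kept the call under all that used both slides, 0 changed sign, and Got1, Slc38a5, Srr, Fgf1 and Trem2 lost it under some. Differences of dim genes such as Dao, Lcn2 and Serpina3n, and of dim probes such as the second of Aldh1l1, rest on signals nearer to background. Where no value above shows it, the cause was not tested.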
